A study of Mus musculus with 5 samples.

Results

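The genes described here are Megf10 and 7 genes related to it by family or by role, namely Megf11, Megf6, Megf9, Gulp1, Lrp1, Axl and Mertk. They were chosen by symbol from the platform's gene table, and all 8 were found, each with 1 probe set, among 23185 named genes. Megf10 was chosen because it differed between the 2 clone groups compared here, so its group difference is given as a description with no test. The other 7 were added for their family or role while results of these data were already known.

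The values come from 5 Affymetrix arrays. Each array holds RNA of 1 single-cell clone of Ocy454, an osteocyte-like cell line of the mouse. The labels say that 37 clones were screened for Sost, the gene of the secreted Wnt inhibitor sclerostin, after 7 days in culture. Clones 12H and 15H had the highest Sost and are here called high-SOST. Clones 4L, 9L and 24L had low Sost and are called low-SOST. All 5 were untreated and grown for 7 days at 37 °C in the same aMEM medium with 10% fetal bovine serum. Each clone descends from 1 cell of an established line, so a group is a set of clones and not a set of animals, and the labels name no separate cultures of a clone. The comparison asks how these genes differ between clones with high and with low Sost.

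Engulfment receptors let a cell recognise and take up dying cells, cell debris or parts of cells. Megf10 is a transmembrane protein with many EGF-like repeats, related to CED-1 of the worm and Draper of the fly, and is best known from astrocytes and from muscle satellite cells. Gulp1, the mammalian relative of CED-6, is an adaptor that binds the cytoplasmic tails of Megf10 and of the large endocytic receptor Lrp1. Axl and Mertk belong to the TAM receptor tyrosine kinases, which reach phosphatidylserine on dying cells through the bridging ligands Gas6 and protein S.

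Values are RMA log2 expression, where a difference of 1 is 2-fold. Medians over named genes were 4.13 to 4.16 on the arrays, whose small number bounds the precision. As a mark of background, the 95th percentile of 1354 olfactory and vomeronasal receptor genes, expressed mainly in sensory tissue, lay between 3.37 and 3.56 over the clones. On the arrays the gene that defines the groups hardly separated them: Sost differed by 0.14 (SE 0.07), with a gap of 0.01 between the nearest clones. It read 4.08 and 3.92 in the high-SOST and 3.78 to 3.91 in the low-SOST clones, little above the background mark. At this level a small difference cannot be told from a lack of signal. Of the other osteocyte markers, Dmp1 read 7.45 and 5.75 and Phex 6.04 and 6.99 in the high-SOST clones, and both lay under the background mark in every low-SOST clone, so no size is given. Pdpn differed by -0.92 (SE 0.13), and Fgf23 and Mepe lay under the mark in every clone.

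Megf10, Entrez gene 70417 on chromosome 18, had a log2 level of 7.55 in 12H and of 7.64 in 15H. In the low-SOST clones the level was 3.97 (4L), 4.08 (9L) and 3.76 (24L). Both high-SOST clones lay far above all low-SOST clones, with a gap of 3.48 between the nearest clones of the groups. Mean levels were 7.60 ± 0.06 (SD, n = 2) in the high-SOST and 3.94 ± 0.16 (SD, n = 3) in the low-SOST clones, 12.6-fold apart. Clones of a group differed by at most 0.31. The low-SOST values lay little above the background mark of their own arrays (3.45 in 4L, 3.42 in 9L and 3.37 in 24L). Background signal can narrow differences at this level, so the fold may be understated. In such bulk RNA, fewer cells with the transcript and less transcript per cell cannot be told apart.

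**Figure D1:**
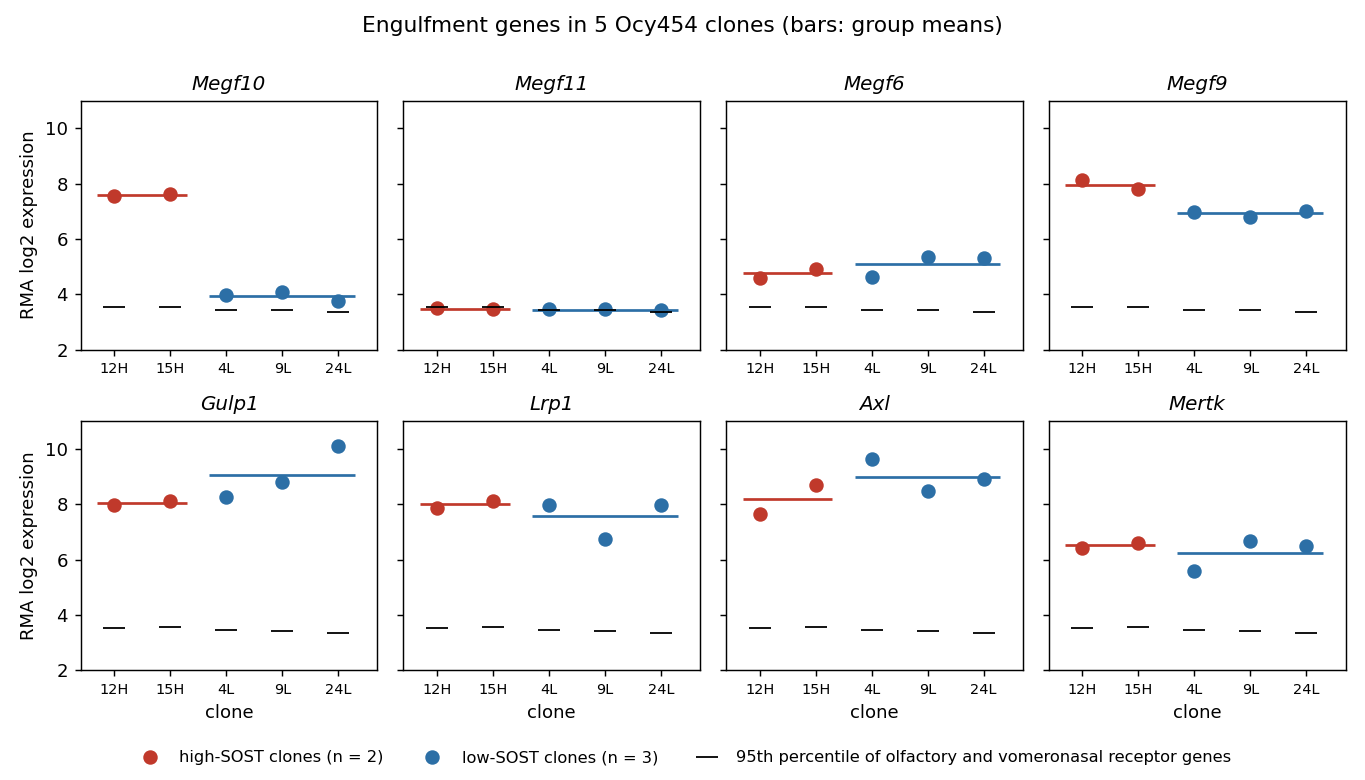
RMA log2 expression (vertical axis) of the 8 genes in each clone (horizontal axis), with points for clones, horizontal lines for group means and short black bars for the 95th percentile of olfactory and vomeronasal receptor genes on that array. Megf10 separates the groups by 3.48, Megf9 by 0.79 and Gulp1 by 0.14, while the clones overlap for the other 5 genes.

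Over the 8 genes, Megf10 and Megf9 read higher and Gulp1 lower in the high-SOST clones without overlap between groups. Over all genes 16% had no overlap (8.26% higher and 7.75% lower). Megf10, Megf9 and Gulp1 each also differed by 2-fold or more, as 1.85% of all genes did without overlap (0.867% higher and 0.983% lower). None of the 7 genes other than Megf10 had an adjusted p under 0.05 in limma's fit, as 0% of all genes had. At an unadjusted p under 0.05, 1 of the 7 was called (Megf9), against 5.78% of all genes (3.07% higher and 2.71% lower). Because Megf10 was picked for this contrast and the others with results in view, nothing is read from these shares about the group.

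Among the relatives of Megf10, Megf9 stood apart. Megf9, a transmembrane protein with EGF-like repeats found in the nervous system and other tissues, read 8.13 in 12H and 7.80 in 15H. Low-SOST levels were 6.97 (4L), 6.81 (9L) and 7.01 (24L). The high-SOST clones lay above the low-SOST clones, by 0.79 between the nearest clones, and the low-SOST clones were within 0.20 of each other. The means were 7.97 ± 0.24 (SD, n = 2) and 6.93 ± 0.11 (SD, n = 3), 2.05-fold apart. The difference of 1.04 (SE 0.14, 95% interval 0.65 to 1.43) exceeded the spread within either group and did not pass over all genes (limma, adjusted p = 0.572, unadjusted p = 0.00213). With 2 and 3 clones, the smallest p an exact permutation test allows is 0.1.

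Megf6 and Megf11 showed no such separation. Megf6, another protein built of many EGF-like repeats, read 4.60 in 12H and 4.92 in 15H against 4.61 (4L), 5.35 (9L) and 5.33 (24L). Clone 4L read like 12H, so the groups overlapped. The difference was -0.34 (SE 0.30, 95% interval -1.20 to 0.52, limma adjusted p = 0.766), and -0.58 without clone 4L, -0.18 without 12H, -0.21 without 9L and -0.22 without 24L.

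Megf11, the closest family relative of Megf10, which spaces neurons in the retina, read 3.51 in 12H, 3.46 in 15H, 4L and 9L, and 3.42 in 24L. Its values lay at the background mark in every clone and above it in 3 of 5. The difference was 0.04 (SE 0.03, 95% interval -0.05 to 0.12, limma adjusted p = 0.738) and 0.01 without 12H. At this level a lack of difference cannot be told from a lack of signal.

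The adaptor Gulp1 read lower in the high-SOST clones, opposite to Megf10. It read 7.97 in 12H and 8.13 in 15H. Low-SOST levels were 8.27 (4L), 8.79 (9L) and 10.11 (24L). All low-SOST clones lay above both high-SOST clones, but 4L exceeded 15H by only 0.14, while the low-SOST clones spanned 1.84. The means were 8.05 ± 0.11 (SD, n = 2) and 9.06 ± 0.95 (SD, n = 3), 2.01-fold apart, so the difference of -1.01 (SE 0.64, 95% interval -2.84 to 0.82) was close to the SD of the low-SOST group and did not pass (limma, adjusted p = 0.737). Clone 24L carried much of it, since without 24L the difference was -0.48.

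Promoter sequences are shown for Megf9 and Gulp1, the genes other than Megf10 whose clones did not overlap, to set the sequence of a gene that read higher beside that of a gene that read lower. They are the 250 bases before the start site in RefSeq's table (GRCm38.p6), 5′ to 3′ on the gene's strand, at chr4:70534929-70535178 on the minus strand for Megf9 and chr1:44551421-44551670 on the plus strand for Gulp1. Capitals mark every match on either strand to any of 5 motifs. These are the GC box, GGGCGG in letters, the CCAAT box, spelled as it is named, the E-box core that reads CACGTG, the TATA box, TATAAA in letters, and the RUNX core, which reads TGTGGT.
Megf9: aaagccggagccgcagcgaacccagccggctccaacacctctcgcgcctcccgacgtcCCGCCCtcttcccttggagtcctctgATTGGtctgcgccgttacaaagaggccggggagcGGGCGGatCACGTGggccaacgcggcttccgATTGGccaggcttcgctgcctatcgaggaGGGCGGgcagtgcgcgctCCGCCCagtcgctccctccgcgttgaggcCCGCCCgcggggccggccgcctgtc
Gulp1: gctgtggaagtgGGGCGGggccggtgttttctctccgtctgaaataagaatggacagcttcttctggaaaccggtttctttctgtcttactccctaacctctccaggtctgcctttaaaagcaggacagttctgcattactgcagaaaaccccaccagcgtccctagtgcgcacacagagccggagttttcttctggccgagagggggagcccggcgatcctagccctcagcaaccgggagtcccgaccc

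The Megf9 window held 5 GC boxes, 2 CCAAT boxes and 1 E-box, and the Gulp1 window 1 GC box alone. No searched motif overlapped another in these windows. GC content was 71.6% for Megf9 and 56.8% for Gulp1, against a median of 52.4% over 32851 windows of the same length. Of those windows 32.7% held a GC box, 33.8% a CCAAT box, 6.02% an E-box, 12.4% a TATA box and 14% a RUNX core. Over the windows of Megf6, Megf9, Gulp1, Lrp1, Axl and Mertk, each of the 6 held at least 1 GC box, 2 (Megf6 and Megf9) held CCAAT boxes, Megf9 held the only E-box, and none held a TATA box or a RUNX core in these letters. These matches describe the sequence and were not tested against the expression values.

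Among the 8 genes, the other engulfment receptors, Lrp1, Axl and Mertk, overlapped between groups, unlike Megf10. Lrp1, which takes up many ligands and uses Gulp1, read 7.88 in 12H and 8.11 in 15H against 7.98 (4L), 6.76 (9L) and 7.99 (24L). Clone 9L read low and the other 4 clones lay together. The difference of 0.42 (SE 0.48, 95% interval -0.96 to 1.79, limma adjusted p = 0.811) was 0.01 without 9L.

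Axl read 7.66 in 12H and 8.70 in 15H. Low-SOST levels were 9.64 (4L), 8.47 (9L) and 8.90 (24L). Clone 12H was the lowest and 4L the highest, with 15H between 9L and 24L. The difference of -0.82 (SE 0.53, 95% interval -2.34 to 0.70, limma adjusted p = 0.737) was of the size of the SD within groups (0.74 and 0.59), and was -0.30 without 12H, -1.34 without 15H and -0.50 without 4L.

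Mertk, the TAM receptor most tied to uptake of dying cells, read 6.44 in 12H and 6.62 in 15H against 5.59 (4L), 6.68 (9L) and 6.50 (24L). Clone 4L read about 1 unit lower than the rest, which lay together. The difference of 0.27 (SE 0.40, 95% interval -0.87 to 1.42, limma adjusted p = 0.83) turned to -0.06 without 4L and was 0.49 without 9L.

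The low-SOST clones thus differed from each other in different genes. Clone 24L had the highest Gulp1, 4L the highest Axl and the lowest Mertk, and 9L the lowest Lrp1. Over the 7 genes without Megf10, the root mean square difference between the high-SOST clones was 0.45, and between low-SOST clones it ran from 0.71 (9L and 24L) to 0.87 (4L and 24L). Between clones of different groups it ran from 0.63 (15H and 4L) to 1.06 (12H and 24L), so clones of different groups were not uniformly farther apart. With Megf10 included, pairs across groups differed by 1.42 to 1.67 and pairs within a group by 0.42 to 0.82. Megf10 was picked for its group difference, which fixes this separation in advance, so nothing is read from it.

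Genes around the 8 were read from 8 lists on engulfment, EGF-repeat proteins and receptor families, of which 116 of 121 distinct genes were measured. None passed limma's test over all genes (adjusted p under 0.05). At an unadjusted p under 0.05, 9 read higher and 4 lower, 11.2% of the 116 against 5.78% of all genes. Without overlap between clones there were 17 higher and 14 lower, 26.7% against 16%. The all-gene shares include 1280 genes with a constant value on all arrays. Among genes with a mean above the background mark, the shares were 12.9% of 93 list genes against 7.97% of 13824 genes for p, and 31.2% against 22% for non-overlap. The median difference was 0.02 over the lists and 0.00 over all genes. The lists were chosen with results known, and no test was made of these shares. The all-gene shares are also the background for the counts of each list below.

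**Figure D2:**
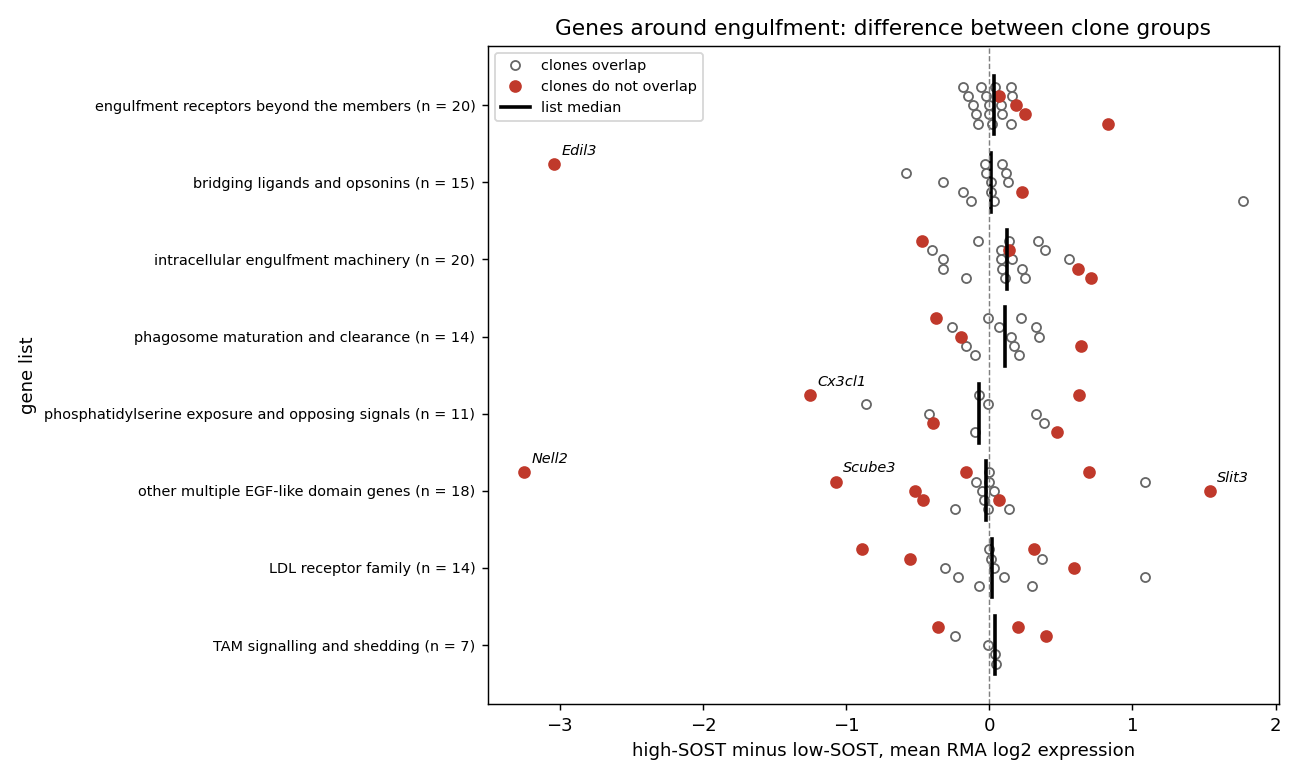
Each point is a gene of a list (rows; n is the number measured), placed by the difference between high-SOST and low-SOST clone means in RMA log2 expression. Filled points mark genes whose clones do not overlap and black bars the list medians, which lie between -0.07 and 0.12. Edil3 at -3.04 and Nell2 at -3.25 lie farthest to the left.

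Among 20 further engulfment receptors, 3 were higher and 0 lower at an unadjusted p under 0.05, and 9 lay under the background mark in every clone (among them Cd36, Timd4 and Stab2). Tyro3, the remaining TAM receptor, read 6.12 and 6.23 in the high-SOST and 5.85, 5.94 and 5.99 in the low-SOST clones, a difference of 0.25 (SE 0.07). Unlike Axl and Mertk, its clones did not overlap. Itgav, an integrin chain that binds the bridging proteins Mfge8 and Edil3, differed by 0.19 (SE 0.06). The third, Cd300lb, a lipid-binding receptor of myeloid cells, lay above the background mark in 12H alone (3.76) and under it in the other 4 clones, so its difference is not read as one of signal. All 3 had limma's adjusted p = 0.737.

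Bridging ligands, which link dying cells to receptors, showed 1 wide difference. Edil3, a secreted ligand of integrins on phagocytes, read 5.15 in 12H and 3.19 in 15H. Low-SOST levels were 6.82 (4L), 6.66 (9L) and 8.15 (24L). The groups did not overlap, but 15H lay under the background mark of its array (3.56), so the size of the difference of -3.04 (SE 0.86, 95% interval -5.50 to -0.59, limma adjusted p = 0.737) is uncertain. It was -2.06 without 15H and -4.02 without 12H. Gas6, the ligand of Axl, Mertk and Tyro3, read 7.69 and 8.99 against 5.13 (4L), 6.74 (9L) and 7.83 (24L), so 24L lay above 12H. Its difference of 1.77 (SE 1.01, limma adjusted p = 0.737) was 1.06 without 4L and 1.12 without 15H. Of the 3 C1q chains, which can bind Megf10, C1qa read 3.79 to 3.88 and C1qb and C1qc lay under the background mark in every clone.

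The intracellular machinery of uptake (20 measured, median 0.12) held 1 gene higher and 0 lower at an unadjusted p under 0.05. That gene was Abca7, a lipid transporter linked to phagocytosis, which read 5.27 and 5.33 against 4.83, 4.73 and 4.48 (difference 0.62, SE 0.12, limma adjusted p = 0.677). Elmo1, which with Dock1 activates Rac1, differed by 0.71 (SE 0.39) without overlap, and by 0.43 without 4L and 0.41 without 12H. Nck1, an adaptor of actin signalling, differed by -0.47 (SE 0.19), and by -0.28 without 12H.

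Genes of phagosome maturation and lipid clearance (14 measured, median 0.11) held 0 genes at an unadjusted p under 0.05 and 0 past limma's adjusted threshold. Dnase2a, the lysosomal nuclease that digests the DNA of engulfed cells, differed by 0.64 (SE 0.24), and Nr1h3, the nuclear receptor LXR alpha, by -0.37 (SE 0.14), each with adjusted p = 0.737 and without overlap.

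Of 11 genes for phosphatidylserine exposure and opposing signals, 1 was higher and 1 lower at an unadjusted p under 0.05, and the products of both act in lipid flipping. Atp11a, a flippase that keeps phosphatidylserine inside the membrane, read 8.22 and 8.47 against 7.53, 7.82 and 7.81 (difference 0.63, SE 0.14, limma adjusted p = 0.733). Tmem30a, the subunit such flippases need to leave the endoplasmic reticulum, read 9.26 and 9.41 against 9.72, 9.78 and 9.70 (difference -0.39, SE 0.06, limma adjusted p = 0.595). Cx3cl1, a chemokine that draws phagocytes to dying cells, differed by -1.25 (SE 0.58) without overlap, and by -0.81 without 4L, where it read 8.40.

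Among 18 other genes with EGF-like repeats, Nell2, a secreted glycoprotein of neurons, read 4.08 in 12H and 4.53 in 15H against 7.78 (4L), 8.41 (9L) and 6.48 (24L). The groups did not overlap and the mean was 9.51-fold lower in the high-SOST clones (difference -3.25, SE 0.68, 95% interval -5.19 to -1.30, limma adjusted p = 0.677). Clone 12H lay little above the background mark of its array (3.55), so the size of the fold is uncertain. Scarf2, a scavenger receptor family member with EGF-like repeats, differed by 0.70 (SE 0.10, limma adjusted p = 0.572). Slit3, a secreted Robo ligand, differed by 1.54 (SE 0.93), and by 0.79 without 4L, which read 3.75. Scube3, a secreted protein of bone growth, differed by -1.07 (SE 0.53), and by -0.63 without 9L.

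In the LDL receptor family, to which Lrp1 belongs, 2 of 14 genes were higher and 1 lower at an unadjusted p under 0.05. Lrp12 read 7.14 and 7.07 against 7.71, 7.70 and 7.57 (difference -0.55, SE 0.06, limma adjusted p = 0.549). Lrp10 differed by 0.31 (SE 0.10) and Lrp5, a Wnt co-receptor bound by sclerostin, by 0.59 (SE 0.20), and by 0.37 without 15H. Lrp4, which presents sclerostin to Lrp5 and Lrp6, read 7.42 and 7.29 against 4.69 (4L), 6.67 (9L) and 7.44 (24L), so 24L matched the high-SOST clones. Its difference of 1.09 (SE 0.95) was 0.30 without 4L and 1.67 without 24L.

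Of 7 genes for TAM signalling and shedding, Ptpn1, a tyrosine phosphatase, was higher at an unadjusted p under 0.05 (difference 0.40, SE 0.08, limma adjusted p = 0.677). Socs3, a cytokine signalling inhibitor, differed by -0.36 (SE 0.14, limma adjusted p = 0.737). The sheddases Adam10 and Adam17, which cut Axl and Mertk from the surface, differed by 0.05 (SE 0.12) and 0.20 (SE 0.10), with overlap for Adam10 and without for Adam17.

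The genes whose values over the 5 clones followed Megf10 most closely, by Pearson correlation among 690 other genes with a range of 2 or more, were Spns2 (r = 0.998), Slc36a2 (0.980), Pik3ip1 and Bglap (0.975 each), Dlx3 (0.969) and Dkk1 (0.969). With 5 clones in 2 groups, all these genes share the gap between groups, and the values are a description without a p. Spns2, a sphingosine-1-phosphate transporter, differed by 3.40, the amino acid transporter Slc36a2 by 3.32, and Pik3ip1, an inhibitor of PI3 kinase, by 1.82. Bglap encodes osteocalcin, Dlx3 a homeobox factor of osteoblasts and Dkk1 a secreted Wnt inhibitor. Spns2, like Megf10, had a small spread within groups, which so high an r over 2 separated groups already implies. It read 8.44 and 8.22 against 4.89 in 4L and in 24L, with the low-SOST clones within 0.11 of each other. In Dkk1, 15H lay above 12H as in Megf10, and in the other 5 genes 12H lay above 15H.

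**Figure D3:**
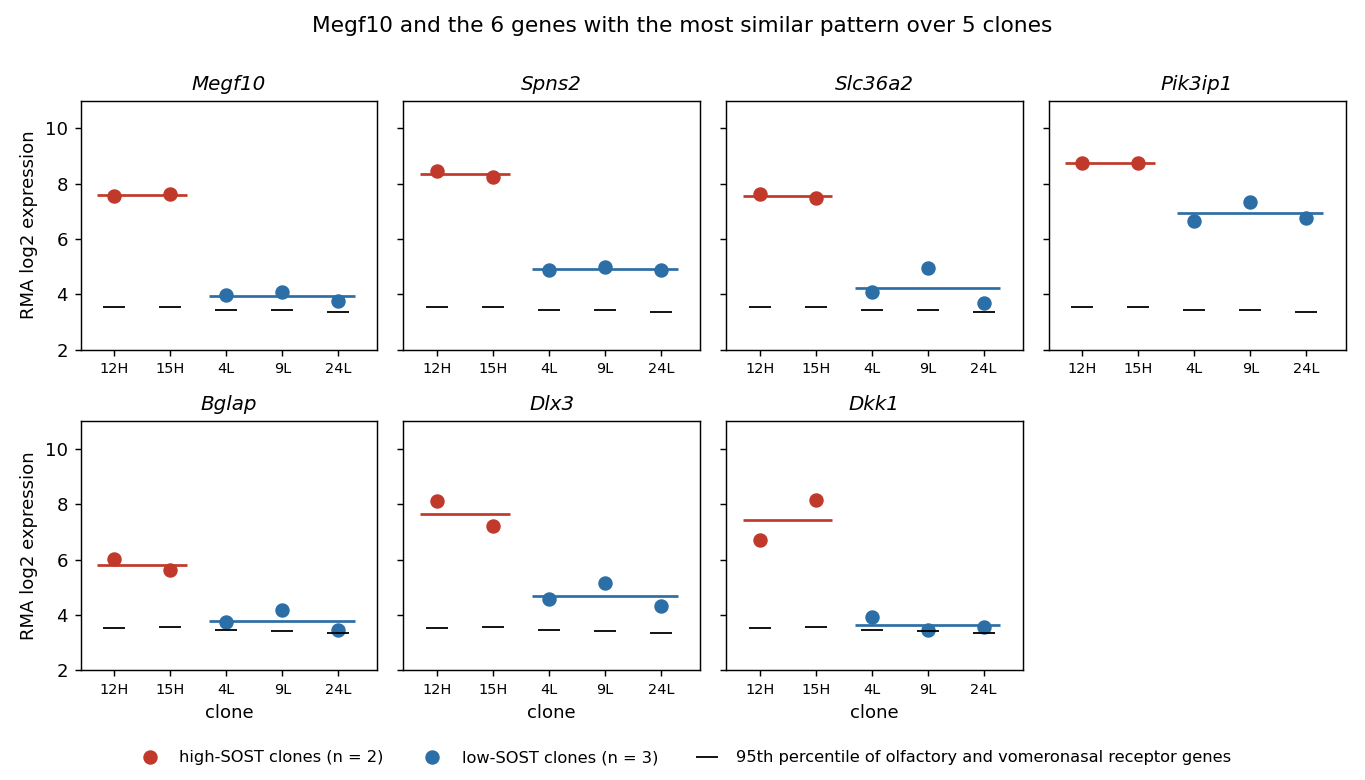
RMA log2 expression (vertical axis) of Megf10 and the 6 genes most correlated with it in each clone (horizontal axis), with points for clones, horizontal lines for group means and short black bars for the 95th percentile of olfactory and vomeronasal receptor genes. The groups do not overlap in any of the 7 panels, and the low-SOST clones of Megf10, Bglap and Dkk1 lie near the black bars.

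The genes beside Megf10 on chromosome 18 did not show its pattern. The 5 nearest measured genes on each side in RefSeq order differed by at most 0.48 in size, against 3.66 for Megf10. Of these 10, 4 lay above the background mark in every clone. Prrc1, the next measured gene after Megf10, read 7.61 and 7.49 against 6.76, 7.36 and 7.33, a difference of 0.40 (SE 0.23) without overlap, and 0.21 without 4L. Lmnb1, a nuclear lamin, differed by 0.33 (SE 0.37), and by 0.04 without 4L, 0.21 without 12H and 0.57 without 9L. The transcript C330018D20Rik, the next before Megf10, differed by -0.48 (SE 0.28) and by -0.18 without 12H and -0.78 without 15H. None of the 10 had an unadjusted p under 0.05 in limma's fit, against 5.78% of all genes. At that share few or none of 10 genes would be called, so nothing is read from this count. Without 4L, 2 of the 10 (Prrc1 and 1700066O22Rik) had such a p.

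**Figure D4:**
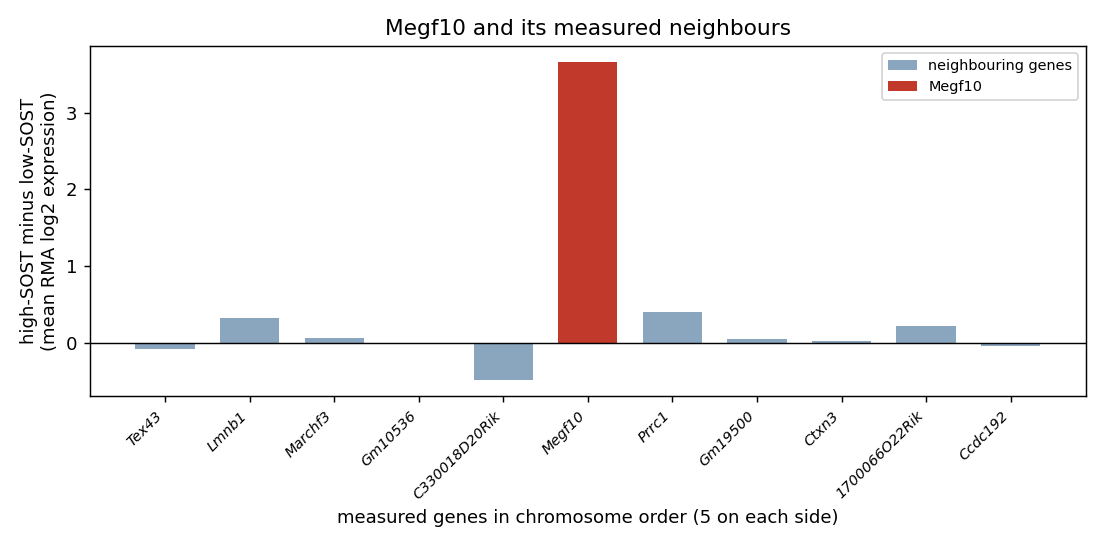
Difference between high-SOST and low-SOST clone means in RMA log2 expression (vertical axis) for Megf10 and the 5 nearest measured genes on each side in chromosome order (horizontal axis, no distance scale). Megf10 stands at 3.66 and every neighbour within 0.48 of 0.

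Markers of other cells known for Megf10 or for engulfment are given beside these values. Those of glia and endothelium lay mostly at or near background. Of 13 macrophage and osteoclast markers, 6 lay under the background mark in every clone, among them Ptprc, Adgre1, Itgam and Tyrobp, and Csf1r read 3.57 to 3.59. The list's mean level was 3.61 and 3.75 in the high-SOST clones and 3.43 to 3.69 in the low-SOST clones. Cd68 read 5.27 to 6.97 with overlap, and Ctsk, which osteoblast lineage cells can also express, read 7.85 and 8.02 against 3.50 (4L), 8.35 (9L) and 4.48 (24L).

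Of 9 muscle markers, 6 had a mean above the background mark. Pax3, Pax7, Myf5, Myog and Des lay above it in every clone. Cdh15, the remaining gene, read 3.48 on every array, at the mark, and lay above it in 3 of 5 clones. The satellite cell factor Pax3 read 7.09 and 6.01 in the high-SOST clones against 4.99 (4L), 7.61 (9L) and 7.30 (24L), with overlap. Pax7, a related factor of the same cells, read 4.30 and 4.43 in the high-SOST and 4.49 to 4.67 in the low-SOST clones (difference -0.21, SE 0.08). Myf5 read 3.74 to 4.28, Myog 4.65 to 4.79 and Myod1 3.22 to 3.57, each with overlap. Des, an intermediate filament gene of muscle and other mesenchymal cells, read 5.83 and 6.16 against 4.05 to 5.47, without overlap (1.26, SE 0.49, limma adjusted p = 0.737). The list's mean was 4.32 and 4.24 against 3.91 to 4.35. Of 6 glial markers, 0 had a mean above the background mark, with list means of 3.02 and 3.06 against 3.08 to 3.19. Of 6 endothelial markers 0 did, with means of 2.74 and 2.69 against 2.70 to 2.88. Of 6 osteocyte markers, 2 (Dmp1 and Phex) were higher and 1 (Pdpn) lower at an unadjusted p under 0.05, with a median difference of 0.06 and list means of 5.33 and 5.13 against 3.96 to 4.25. Over all genes 5.78% passed that limit in either direction and 16% had no overlap. Of 5 osteoblast markers, 1 (Bglap) was higher by the same limit and 4 had no overlap, while Col1a1 overlapped. Bglap was named above for its likeness to Megf10, so nothing is read from its passing. The list means of the osteoblast markers were 10.18 and 9.83 against 5.04 (4L), 8.67 (9L) and 8.17 (24L). Their part in the values above was not tested.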

How the data were processed

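RNA of 5 clones was hybridised to 1 array each. The authors deposited log2 expression per probe set, and the submitters' processing notes list affy 1.36.1, R 2.15.1 and RMA without saying what each did. RMA removes background, gives all arrays the same distribution and combines probes, so a shift shared by most genes is lost. Levels of different genes cannot be compared as amounts of RNA. The background mark and the list means set different genes side by side, so both are rough guides. For the chip definition the sources used here give nothing. Among 25206 rows, 2021 without a gene symbol were left out. All 23185 named rows matched RefSeq (GRCm38.p6) by Entrez number.

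Groups came from the Sost label. Each gene was fitted with limma 3.58.1 in R 4.3.3 (lmFit, eBayes, 3 residual and 0.701 prior degrees of freedom, two-sided, Benjamini-Hochberg over all genes). The p-values set the group difference against the spread between clones. With 1 array per clone, that spread holds clone, culture and array differences together. The fit was tested on simulated data. Figures used matplotlib 3.10.9.

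The members and lists were chosen with earlier results of these data known. Named were the 8 genes, list genes without overlap and a difference of 1 or more (up to 4 per list) or else the 2 with the smallest p, and the 6 genes most correlated with Megf10; predicted genes, sensory receptors and small RNAs were not named. Of the genes given with values, 29 come from this rule; 16 others, and single marker and list genes given as examples, were picked with their values in view.

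Alternatives were arrays shifted to 1 median, quantile normalization again, leaving out the dimmest 30% of genes, a variance trend with robust settings, an unmoderated model (no test where clones of a group were all tied), array weights and leaving out each clone. The shares among genes above the background mark were added after seeing the data.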

Additional observations from a re-analysis of the deposited data

How the results depend on the processing

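None of the 7 genes other than Megf10, and none of the genes of the 8 pathway lists, passed limma's adjusted threshold in any of the 11 alternatives. For Megf9 the adjusted p ran from 0.0977 (without 15H) to 0.799 and the difference from 0.87 to 1.21. The Megf10 difference ran from 3.57 to 3.73. Mertk ran from -0.06 to 0.49 with a clone left out, and turned to -0.06 without 4L. With arrays shifted to 1 median, 2 of all genes passed, against 0 otherwise. They were Megf10, picked for this contrast, and Spns2, named for its likeness to Megf10, so nothing is read from their passing. The unmoderated model gave 461 genes higher and 406 lower at an unadjusted p under 0.05. With a clone left out these counts ran from 633 to 1816 and from 640 to 1289, highest without 15H and next without 12H (1098 and 1008). By the same limit, members other than Megf10 numbered 1 to 2 (Megf6 joined without 4L), list genes lower 4 to 8 (8 without 15H) and neighbours of Megf10 0 to 2 (Prrc1 and 1700066O22Rik, without 4L). The Cd68 difference ran from -0.85 to 0.01, and was 0.01 without 12H and 0.00 without 4L. The cause was not tested. Without 12H or 15H the lone high-SOST clone is assumed to vary like the others. Low signal limits Megf11, Sost and the low-SOST values of Megf10.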
